A study of Homo sapiens with 24 samples.

Results

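Human embryonic stem cells grown on a layer of mouse feeder cells were compared with the same lines grown without feeders, both with the solvent DMSO for 5 days. The comparison rests on 6 of the 24 Affymetrix U133 Plus 2.0 arrays of the series, 1 feeder-supported and 1 feeder-free array of each of the established lines H1, H9 and HSF1, selected by their labels and not by a measured value. All 6 arrays carry the solvent and none the inhibitor. Another 6 arrays hold the same lines and culture systems treated with AZD3965 at 250 nM, which blocks the lactate carrier MCT1, and 12 hold feeder-free H9 and HSF1 cells, 3 biological replicates each, fed either plain medium or medium taken from cultures of mouse embryonic fibroblasts (conditioned medium). The series' design text asks whether feeders, and factors they secrete, change the metabolism of these cells. Conditioned medium lasted 5 days by the labels and 24 hours by the design text, and neither gives a passage, matrix, feeder density or depletion step. With 1 array per line and culture system, no p-value of the culture comparison measures the spread between repeat cultures, and the number of arrays limits the precision.

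Feeder layers of mitotically inactive mouse fibroblasts supply matrix, growth factors and inhibitors that hold human embryonic stem cells undifferentiated, and conditioned medium carries the soluble share of that supply. Cells without feeders take these factors from a coated plate and a defined or conditioned medium. Human embryonic stem cells correspond to a primed state close to the epiblast, kept by FGF and Activin or Nodal signalling, and rely strongly on glycolysis and on lipid synthesis for growth.

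Levels are the deposited RMA values on the log2 scale and a difference is feeder-supported minus feeder-free, so 1 is a 2-fold difference. Markers of stem cells were high on every array: the log2 of the summed linear signal of 21 core pluripotency genes was 16.05 to 16.45 with feeders and 16.62 to 16.65 without, with NANOG at 12.33, 12.49 and 11.82 with feeders and 12.11, 12.22 and 11.89 without (H1, H9 and HSF1 in this order here and below). The feeder-supported HSF1 array stood apart, with an interquartile range of 2.45 against 2.66 to 2.85 in the other feeder-supported arrays and 3.08 to 3.22 without feeders. Its human Alu control signal was 0.31 below that of its feeder-free partner, against differences of 0.015 in H1 and 0.029 in H9. The 3-prime minus 5-prime signal of ACTB, which rises as RNA is degraded, was lower with feeders by 0.21, 0.44 and 0.79 in H1, H9 and HSF1. In all 3 lines differences followed the level of the gene: the 4190 genes with the lowest feeder-free levels had a median difference of 0.46 and the 4190 with the highest levels one of -0.55. In HSF1 these medians were 0.80 and -1.06. The feeder-free level that forms the bins is also subtracted in the difference, which by itself tilts low bins upward and high bins downward. A gene with all feeder-free values under 5 also passed the level filter only with all 3 feeder-supported values above 5. Bin values and counts set beside lists below share both limits. In these bins a gene near background tended upward and an abundant gene downward. The part of this narrowing in each result was not tested beyond the quantile normalization given beside the results.

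**Figure D1:**
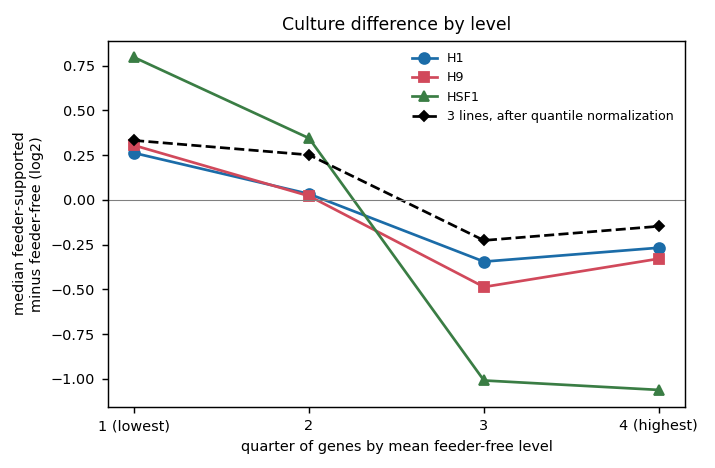
Median feeder-supported minus feeder-free difference (log2) in 4 bins of 4190 genes by mean feeder-free level, with 1 line per cell line and a dashed line for the 3 lines after quantile normalization of the 6 arrays. The median falls from 0.80 in the lowest bin to -1.06 in the highest in HSF1, and from 0.33 to -0.15 after quantile normalization. The feeder-free level that forms the bins is also a term of the difference, so part of this fall is built in.

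Of 16760 genes tested with limma, paired by line, 1883 were higher with feeders (11.2% of all tested) and 3273 lower (19.5%) at an adjusted p under 0.05. "Rose" and "fell" below refer to this test. With 3 pairs the fit took each gene's spread wholly from genes of like level, so its single p-values are very small and are not printed, and the SEs given below are of that kind. A stricter set was therefore formed after the data were seen: 458 genes higher (2.73%) and 727 lower (4.34%) passed in this fit, in a fit of all 12 arrays with DMSO or inhibitor, and after quantile normalization, and are called firm here. Alone, the 12-array fit called 14.9% higher and 24.7% lower, and the fit after quantile normalization 3.78% and 4.53%. The 12-array fit takes part of its spread from DMSO against inhibitor arrays of the same line and culture system. That part leaves out how differently lines respond to feeders, and those arrays are not independent repeats. The adjusted p printed for a gene is the largest of these 3 limma fits. Leaving out HSF1 kept the call of 451 and 720 firm genes, leaving out H1 that of 209 and 464, and leaving out H9 that of 98 and 227. Over all genes 5183 calls were made without HSF1, 1204 without H1 and 443 without H9. With each gene's own spread and no sharing across genes limma called 0, against 2648 genes at an unadjusted p under 0.05. The 3 feeder-supported arrays lay above the 3 feeder-free arrays for 21.1% of genes and below them for 31.3%. In bulk RNA, fewer cells of a type and less RNA per cell cannot be told apart, and neither can human RNA and mouse feeder RNA that binds human probes.

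Transcription factors of the body axis and of mesenchyme, and annexin, caveolin and adhesion genes led the rises, among genes with a higher group mean of at least 7, the same sign in 3 lines and 1 sign for all probe sets past the level filter. HOXC6, a homeobox gene of trunk patterning, was at 11.71, 12.49 and 12.89 with feeders and 5.70, 5.78 and 5.42 without. The 3 feeder-supported values lay at least 5 log2 units above every feeder-free value, and the feeder-free values lay below the array medians of 6.12 to 6.15, so the fitted difference of 6.73 (SE 0.36, adjusted p = 1.58e-05) gives no exact fold. The zinc finger gene TSHZ1 was at 8.52, 8.47 and 10.07 with feeders and 3.47, 3.23 and 3.38 without, again with feeder-free values at background. ZFHX3, a zinc finger homeobox gene, was at 10.996, 11.40 and 12.09 with feeders and 6.54, 5.87 and 6.28 without (difference 5.26, adjusted p = 4.88e-05). CDH11, a cadherin of mesenchymal cells, was at 11.28, 11.63 and 12.54 with feeders and 7.39, 7.15 and 6.82 without, and S100A6, a calcium-binding protein, at 12.21, 12.25 and 12.91 with feeders and 8.47, 7.25 and 7.93 without. For each of HOXC6, TSHZ1, ZFHX3, CDH11 and S100A6 the HSF1 array gave the highest feeder-supported value, although that array had the narrowest range.

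ANXA1, annexin A1, differed in another order of lines, at 13.04, 11.46 and 9.68 with feeders and 9.0, 5.45 and 6.33 without, with its highest values in H1 and H9 and no overlap of the groups. CAV2, a caveolin of membrane pits, followed the same order at 11.63, 9.36 and 7.74 with feeders and 7.89, 4.58 and 5.92 without, and here the groups overlapped, since feeder-free H1 lay above feeder-supported HSF1. The other genes among the 15 largest rises by this rule were CPEB2, a regulator of mRNA translation (4.42), RNF5, a membrane ubiquitin ligase (4.04), ATP6V0D2, a proton pump subunit (4.02), NR4A2, an orphan nuclear receptor (3.75), TWIST1, a mesenchymal basic helix-loop-helix factor (3.74), ZIC1 (3.67), PCDH19 (3.63) and ZFPM2, a cofactor of GATA factors (3.59). All were firm, and the rule itself required a rise in 3 of 3 lines. HOXC6, TSHZ1, S100A6, ANXA1, RNF5, TWIST1, PCDH19 and ZFPM2 had only 1 probe set past the level filter. For them the rule on probe sets could not fail. Feeder-free means of RNF5, NR4A2, TWIST1, ZIC1 and ZFPM2 lay below the array medians, so that their differences give no exact fold and no order, as for any gene below with a group mean at that level. The RNF5 probe set may also bind transcripts of a processed copy of the gene, so its value is uncertain. The mean over all probe sets of a gene, an alternative, gave smaller differences that still passed: 3.45 for TSHZ1, 1.92 for ZFHX3, 1.38 for CDH11, 2.44 for S100A6, 2.60 for ANXA1, 1.86 for CPEB2, 2.52 for ATP6V0D2, 2.56 for NR4A2, 1.36 for ZIC1 and 2.00 for CAV2.

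The largest falls joined lipid handling, signalling and neural genes. CUZD1 was at 7.08, 6.60 and 5.91 with feeders and 8.63, 10.63 and 10.63 without, a difference of -3.44 (SE 0.33, adjusted p = 0.00743). FABP7, which carries fatty acids in neural progenitors, was at 6.34, 6.55 and 6.43 with feeders and 8.82, 11.49 and 9.22 without, and its fall in H9 was the deepest of the 3 lines. GDA, guanine deaminase, was at 4.19, 3.91 and 4.78 with feeders and 7.78, 8.68 and 6.59 without, so that its feeder-supported values lay at background and the fold is not exact. FGFBP3, which binds and releases FGFs, was at 8.88, 7.88 and 6.61 with feeders and 10.53, 11.62 and 10.30 without (difference -3.02, adjusted p = 0.00272). For CUZD1, FABP7, GDA and FGFBP3 the groups did not overlap.

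The remaining falls among the 15 largest by the same rule were those of PLA2G3, a secreted phospholipase (-2.90), INSIG1, the sterol-regulated retention protein of the endoplasmic reticulum (-2.72), RORB, an orphan nuclear receptor (-2.67), ZNF521 (-2.66), TMEM163 (-2.62), SLC1A6, a glutamate carrier (-2.47), GDPD1 (-2.42), DAZL, an RNA-binding protein of germ cells (-2.37), TNFRSF11A, the receptor RANK (-2.28), KCTD12 (-2.22) and RAB33A, a small GTPase (-2.19). Feeder-supported means of RORB, ZNF521, TMEM163, GDPD1, DAZL, TNFRSF11A, KCTD12 and RAB33A lay below the array medians. CUZD1, FGFBP3, PLA2G3, DAZL and RAB33A had only 1 probe set past the level filter, so the rule on probe sets could not fail for them. The mean over all probe sets gave -2.27 for FABP7, -1.82 for GDA, -1.18 for RORB, -1.94 for ZNF521, -1.88 for TMEM163, -1.65 for SLC1A6 and -1.12 for GDPD1. TNFSF11, the ligand RANKL of the receptor RANK, also fell, with differences of -1.64, -1.68 and -2.57 in H1, H9 and HSF1.

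**Figure D2:**
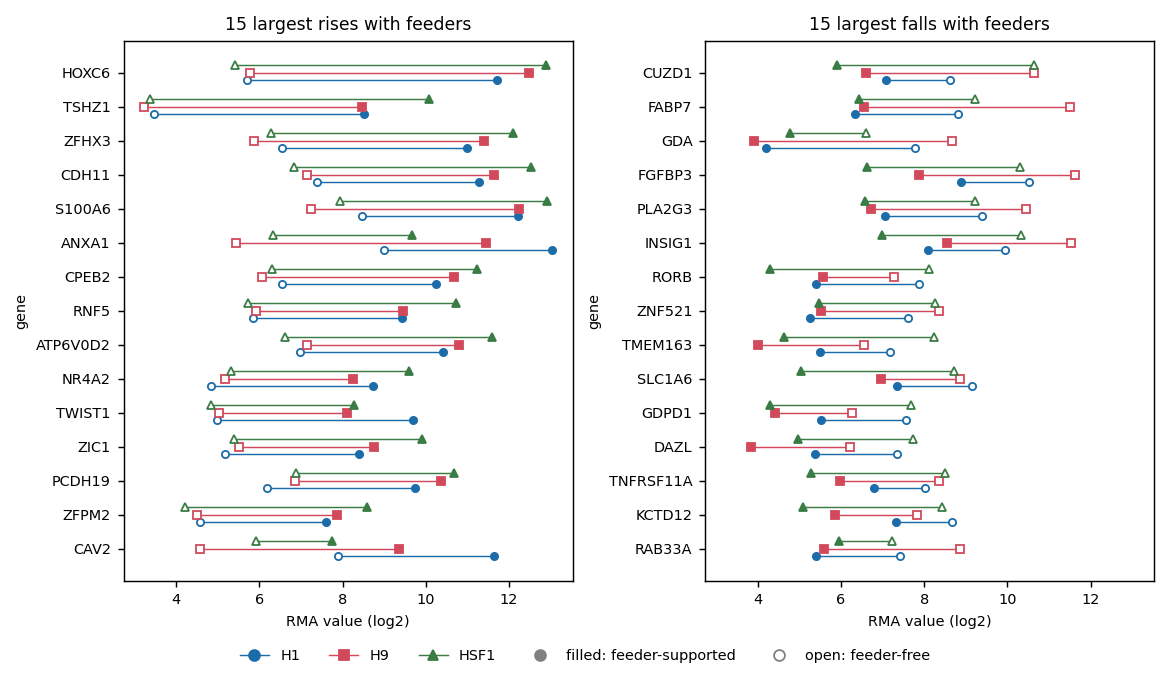
RMA values (log2) on each of the 6 arrays for the 15 genes with the largest rise (left) and the 15 with the largest fall (right) with feeders, among genes with a higher group mean of at least 7 and 1 sign in all lines and tested probe sets; filled symbols are feeder-supported, open symbols feeder-free, and a line joins the pair of each cell line. By this rule every pair moves in the direction of its panel, HOXC6 by 6.73 and CUZD1 by -3.44 on average. Some genes, such as these 2, have only 1 tested probe set. The open symbols of HOXC6 and TSHZ1 lie at the lower end of the scale.

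Markers of fibroblasts rose more often than genes at large, and some of them belong to the largest changes. Of 33 markers tested 17 rose and 1 fell, THY1 (-0.73), with a list median of 0.77 against -0.21 over all genes; 15 were firm and, without HSF1, 19 rose. The log2 of the summed signal of the 35 markers with a probe set was 16.11, 15.48 and 15.26 with feeders and 15.01, 13.96 and 14.45 without. Of these markers 29, 29 and 27 lay above the array median with feeders and 25, 22 and 24 without. IGFBP7, a secreted growth factor binding protein, was at 11.28, 10.45 and 10.71 with feeders and 8.28, 7.52 and 7.77 without and VIM, vimentin, at 14.06, 13.58 and 13.77 with feeders and 12.65, 10.96 and 11.61 without. For both genes the groups did not overlap. Other firm members were TWIST1 (3.74), CAV1 (3.07), COL5A2 (2.18), MFAP5 (1.75), LOX, which cross-links collagen (1.56), DCN (1.24), the smooth muscle actin ACTA2 (1.20) and FAP (0.94). SPARC and COL1A1, both abundant in fibroblasts, did not pass. SPARC was at 12.09, 11.17 and 10.63 with feeders and 11.62, 10.88 and 11.21 without and COL1A1 at 11.58, 9.75 and 9.96 with feeders and 10.35, 8.68 and 9.95 without, with line differences of 1.23, 1.07 and 0.0073. The part of feeder RNA in this list was not tested. Sums over markers of other cells were 10.38 to 11.20 with feeders and 11.16 to 11.70 without for endothelium (11 genes), 9.16 to 9.80 and 8.79 to 8.89 for blood (9 genes), and 13.47 to 13.55 and 12.87 to 13.34 for neurons and glia (11 genes).

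Collagen genes were called about as often as genes at large. Of 38 collagen genes 6 rose and 7 fell (without HSF1 9 and 6). COL3A1 (2.42), COL8A1 (2.30), COL5A2, COL12A1 (1.72) and the anchoring fibril gene COL7A1 (1.97) rose, and COL14A1 (-1.77), the cartilage genes COL2A1 (-1.77) and COL9A1 (-1.48) and the basement membrane genes COL4A5 (-1.0) and COL4A6 (-1.71) fell. Only 1 of the 2 probe sets of COL3A1 had this sign, and likewise for COL14A1. Of 27 matrix glycoproteins 5 rose, all firm: TNC, tenascin C (2.48), SPP1, osteopontin (1.98), MFAP5, FN1, fibronectin (1.34), and DCN. Another 6 fell, of which THBS2 (-1.45) and TGFBI (-1.41) were firm. TNC was at 9.84, 9.79 and 7.29 with feeders and 6.59, 6.48 and 6.41 without, with a smaller difference in HSF1 than in H1 and H9.

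Genes of the epithelial to mesenchymal transition and of the calcium-binding annexins and S100 proteins moved in 1 direction where they were called. Of 11 transition regulators 5 rose and 0 fell: TWIST1, VIM, FOXC2 (1.73), ZEB1 (1.11) and CDH2, N-cadherin (1.06). SNAI1 (0.33) and SNAI2 (-0.24) did not pass, nor did the epithelial genes CDH1, E-cadherin, at 11.76, 11.55 and 11.13 with feeders and 11.75, 11.60 and 11.998 without, and EPCAM, at 12.88, 12.92 and 12.53 with feeders and 12.78, 12.66 and 12.99 without. Of 27 epithelial junction genes 0 rose and 2 fell, CLDN6 (-1.24) and RAB25 (-1.23). Of 24 annexins and S100 genes 10 rose and 0 fell, with a median of 0.61. Besides ANXA1 and S100A6, ANXA2 (1.78) and its partner S100A10 (1.13) rose, at 13.56, 12.46 and 12.04 with feeders and 12.15, 9.43 and 11.15 without and 13.01, 12.27 and 11.71 with feeders and 12.36, 10.25 and 10.99 without. Of 19 contractile genes 6 rose, among them ACTG2 (1.89) and TAGLN (1.25), whose line differences were 1.15, 2.63 and -0.032, with none in HSF1. Of 17 targets of the mechanical signal YAP 5 rose, with MYOF (2.82) and ANKRD1 (2.13) first, and 1 fell.

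HOX genes were called in 1 direction. Of 23 HOX genes tested 12 rose and 0 fell, and 9 rose without HSF1. The 7 firm ones were HOXC6, HOXB6 (3.04), HOXB8 (2.21), HOXD10 (2.04), HOXC4 (1.88), HOXC8 (1.5) and HOXB7 (1.33), genes of the neck and trunk. HOXB6 was at 6.90, 7.51 and 7.36 with feeders and 4.37, 4.22 and 4.08 without and HOXC4 at 7.23, 7.64 and 8.51 with feeders and 5.94, 5.84 and 5.97 without, with higher feeder-supported values in HSF1 than in H1. MEIS1 and MEIS2, homeobox partners of HOX proteins, rose by 3.30 and 1.92, both firm. The feeder-free means of these 7 genes lay below the array medians. On the 6 unconditioned feeder-free arrays of the medium experiment HOXC6 lay between 4.80 and 7.72, below every feeder-supported value.

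Called signalling genes included ligands and secreted inhibitors of several pathways. In the Nodal and TGF-beta list 5 of 20 genes rose, all firm, and 0 fell. LEFTY1, a secreted Nodal inhibitor, was at 12.83, 12.26 and 11.64 with feeders and 9.82, 9.05 and 7.60 without, and the ligand NODAL at 10.28, 10.60 and 9.58 with feeders and 8.62, 7.54 and 7.36 without. CER1 (3.34), FST, follistatin (1.45), and TGFB2 (0.92) completed this group, while receptors such as ACVR2B (-0.68) and TGFBR1 (-0.72) did not pass. Among 18 BMP genes 3 rose and 4 fell, against 11.2% higher and 19.5% lower among all genes. GREM1, a BMP antagonist (3.15, adjusted p = 0.0275), and BMP4 (1.01) rose firmly. BMP2 rose (1.0) without being firm, with line differences of 0.77, 2.60 and -0.37. ID3 (-1.0), SMURF1 (-1.0), SMAD5 (-0.94) and SMAD9 (-0.63) fell, none of them firmly, whereas ID1 (0.37) did not pass. Of the SMURF1 probe sets 2 of 5 had this sign, and of the SMAD9 probe sets 1 of 2. GREM1 was at 9.66, 7.79 and 5.83 with feeders and 5.44, 3.85 and 4.54 without.

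FGF and ERK genes fell and rose (7 and 4 of 26). The feedback phosphatase DUSP6 (-1.33) and the ETS factor ETV1 (-1.29) fell firmly, and FGFR2 (-0.97) and FGFR4 (-1.08) fell, the former with this sign in 5 of 11 probe sets and the latter in 2 of 4. The immediate early gene EGR1 rose, at 10.43, 9.95 and 10.98 with feeders and 7.86, 7.36 and 9.32 without, as did FOSL1 (0.96), FGF8 (1.11) and FGF4 (0.93). DUSP6 and EGR1, both response genes of ERK, differed in opposite directions in each of the 3 lines, DUSP6 by -1.20, -0.90 and -1.89. In the WNT list 7 of 28 genes rose and 6 fell. Secreted modulators went both ways: SFRP1 (-2.17), SFRP2 (-1.08) and DKK3 (-1.16) fell, and DKK4 (1.14) and DKK1 (0.67) rose, the latter with line differences of -1.26, 2.96 and 0.30. The target gene SP5 rose (1.53). AXIN2, a common target, differed by -0.022 and did not pass.

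Retinoic acid genes included 2 firm rises. CYP26A1, which breaks down retinoic acid, was at 10.79, 11.78 and 8.93 with feeders and 6.82, 7.94 and 6.95 without, and ALDH1A3, which makes it, rose by 1.61. The receptors RARA (0.83) and RARB (0.86) rose as well. Among 45 cytokine and chemokine genes 13 rose and 4 fell, against 11.2% higher and 19.5% lower among all genes. The median feeder-free level of this list was low, at 6.07. Of the 4190 genes with the lowest levels 1209 rose and 138 fell, so the count of rises is near that of genes of like level. The fit after quantile normalization called 5 list genes higher and 2 lower. CXCL14 (1.63), IL32 (1.45), CXCL1 (1.29) and IL6 (1.23) rose firmly, and CXCL6 (-1.54) and CXCL3 (-1.13) fell. Most of the other rises were of genes with feeder-free levels near background, such as IL37 (0.79). In the IGF list IGF1 (1.17) and IGFBP7 rose firmly and IRS1, the insulin receptor substrate, fell (-1.25).

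Primed-state genes were called lower more often than higher, and naive-state genes the reverse. The median feeder-free level was 10.52 for the primed-state list and 6.07 for the naive-state list. Of the 4190 genes with the highest feeder-free levels 981 fell and 67 rose. Of the 4190 with the lowest levels 1209 rose and 138 fell. The part of this level dependence in the 2 lists was not tested beyond quantile normalization. Of 19 primed-state genes 13 fell and 2 rose, with a median of -0.90 (-0.56 after quantile normalization). SOX11 was at 8.72, 9.44 and 8.32 with feeders and 10.13, 10.62 and 10.81 without, and ZIC2 (-1.32), SALL2 (-1.17) and PTPRZ1 (-0.92) also fell firmly. Of 18 naive-state genes 8 rose and 1 fell, NR5A2 (-1.16). KLF5 was at 8.54, 7.74 and 7.18 with feeders and 5.87, 5.86 and 5.70 without, KLF4 rose by 1.55, TFAP2C by 1.59 and NLRP7 by 1.87, while DPPA5 (-0.15) and KLF17 (0.40) did not pass. The KLF factors are shared by naive cells and by many epithelial and stromal cells.

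Endoderm genes rose in 10 of 15 cases and fell in 0 (11 without HSF1). SOX17, a driver of endoderm, was at 5.27, 7.37 and 5.35 with feeders and 4.06, 4.56 and 3.80 without, CXCR4 rose by 2.02 and PRDM1 by 1.07, all with the largest difference in H9. Of 18 primitive streak and mesoderm genes 11 rose and 1 fell. EOMES was at 7.61, 10.45 and 6.97 with feeders and 5.78, 5.99 and 5.34 without, and MIXL1 (1.16) and GSC (0.83) rose firmly from background levels. Of 15 trophoblast and amnion genes 8 rose and 0 fell, with GATA3 at 7.60, 7.31 and 6.66 with feeders and 5.2, 5.25 and 5.09 without. Median feeder-free levels of the endoderm, primitive streak and mesoderm, and trophoblast and amnion lists were low, at 5.90, 5.95 and 5.64. Of the 4190 genes with the lowest levels, up to 6.28, 1209 rose and 138 fell. After quantile normalization the list medians were 0.83, 0.76 and 0.70, against 0.33 for those 4190 genes. That fit called 5, 6 and 5 list genes higher and 0 lower. The part of level in these rises was not tested further. Among neuroectoderm genes ZIC1 rose and FABP7, ZNF521 and OTX2 (-0.90) fell, 5 and 7 of 21.

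Core pluripotency genes fell or did not pass. Of 21 genes 0 rose and 6 fell, against 19.5% lower among all genes, with FOXD3 (-1.66) farthest. The median feeder-free level of this list was high, at 12.09. Of the 4190 genes with the highest levels 981 fell and 67 rose. The list median was -0.45 against -0.55 for those 4190 genes, and -0.21 against -0.15 after quantile normalization. The fit after that normalization called 2 list genes higher and 5 lower. The part of level in these falls was not tested further. SOX2 was at 12.27, 12.02 and 12.02 with feeders and 12.63, 12.48 and 12.79 without, a firm fall of 0.53 (adjusted p = 0.0471), with this sign in 3 of its 4 probe sets. NANOG differed by 0.14 (adjusted p = 0.617) and L1TD1 by -0.49. No probe set naming POU5F1 alone was read.

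Most cholesterol synthesis genes fell. Of 16 cholesterol synthesis genes 14 fell and 0 rose, 10 of them firmly and 15 without HSF1, with medians over the list of -0.78 in H1, -1.76 in H9 and -1.57 in HSF1. After quantile normalization the median was -1.05 against 0.03 over all genes. The list had been singled out in earlier results of these arrays, so its direction is no independent evidence. HMGCS1, an early enzyme of the pathway, was at 10.34, 10.56 and 9.79 with feeders and 11.39, 12.54 and 11.57 without. LSS, which closes the sterol rings, was at 10.11, 9.99 and 9.16 with feeders and 11.31, 12.72 and 10.60 without and FDPS, which makes farnesyl diphosphate, at 10.73, 10.55 and 9.89 with feeders and 11.70, 12.22 and 11.57 without. In each of these the 3 feeder-supported values lay below all feeder-free values. DHCR7 (-1.59), NSDHL (-1.51), SC5D (-1.43), EBP (-1.42), SQLE (-1.27), MSMO1 (-1.26) and ACAT2 (-1.50) also fell firmly. MVK, mevalonate kinase, differed by 0.55 and PMVK by -0.76, and neither passed.

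Part of the genes that sense and carry sterols, and of those of fatty acid synthesis, fell as well. INSIG1 was at 8.10, 8.55 and 6.97 with feeders and 9.93, 11.53 and 10.33 without and STARD4, a sterol carrier, at 9.13, 8.87 and 7.46 with feeders and 9.92, 11.21 and 9.97 without, both firm (adjusted p = 0.0019 and 0.0171). Of 19 sterol sensing, uptake and efflux genes 8 fell and 0 rose. The transcription factor gene SREBF1 fell (-0.95), while SREBF2 (-0.46) differed by -0.17, -1.54 and 0.32 in H1, H9 and HSF1 and did not pass. NR1H3, the liver X receptor alpha (-0.83), and APOE (-0.73) fell, and ABCA1, a target of that receptor (-0.25), did not pass. Of 17 fatty acid synthesis genes 10 fell and 1 rose, THRSP (0.95). FASN, fatty acid synthase, was at 9.24, 8.86 and 7.92 with feeders and 10.61, 12.12 and 9.73 without, but only 1 of its 2 probe sets had this sign. ACACA, acetyl-CoA carboxylase (-1.41), ACLY, ATP citrate lyase (-1.12), the desaturase SCD (-1.20) and ELOVL6 (-1.24) fell firmly with all their probe sets. In the opposite direction CPT1A, which admits fatty acids to mitochondria, rose, at 9.63, 9.05 and 8.74 with feeders and 7.02, 7.17 and 7.09 without, with all of its 3 probe sets, while its relative CPT1C fell by 1.59.

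**Figure D3:**
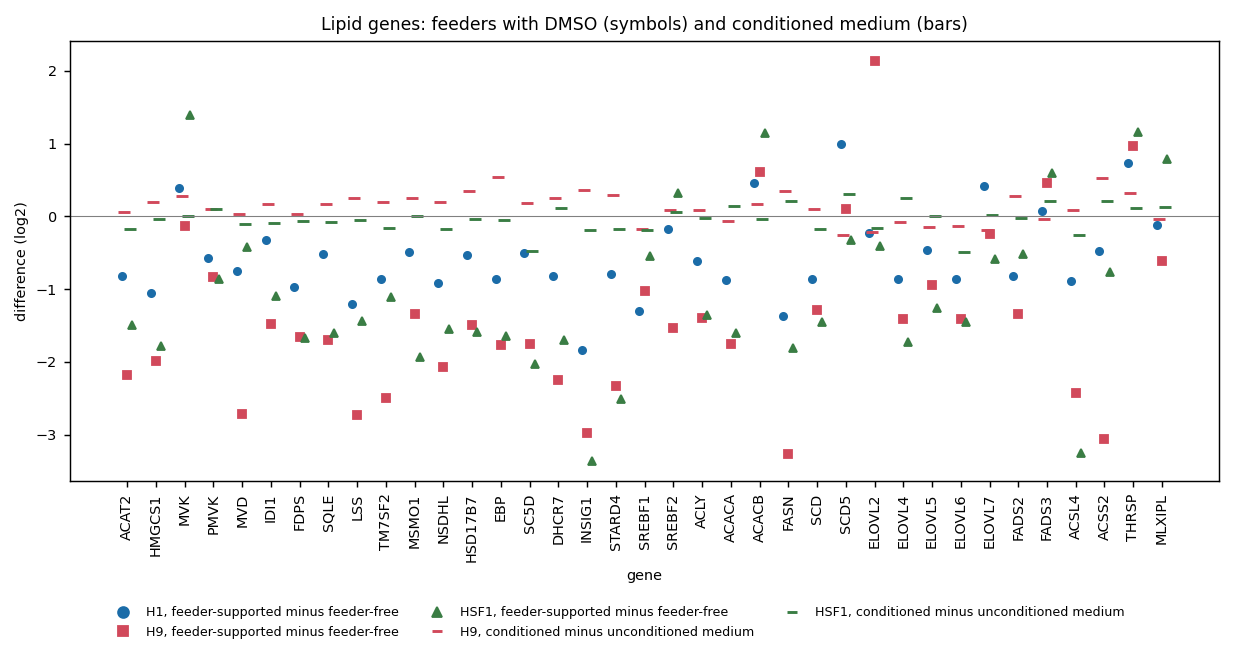
Differences (log2) of cholesterol and fatty acid genes: symbols are feeder-supported minus feeder-free with DMSO in H1, H9 and HSF1, and bars are the effect of conditioned medium (conditioned minus unconditioned) in H9 and HSF1. Most symbols from ACAT2 to DHCR7 lie below 0, with MVK apart, while the bars stay near 0, with list medians of 0.19 in H9 and -0.061 in HSF1 for cholesterol synthesis.

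Promoter windows of 4 of these genes are shown because the genes fell in every line. They run from 250 bases before to 50 bases after a RefSeq start (GRCh38.p14), 5′ to 3′ on the gene's strand, with capitals for CCAAT and for CACNCCAC on either strand; no overlap of the 2 motifs occurs in them. INSIG1 is at chr7:155297628-155297927 (+), FDPS at chr1:155308616-155308915 (+), HMGCS1 at chr5:43313363-43313662 (-, the one of its 2 RefSeq windows with matches, since the other holds 0 of any motif) and SCD at chr10:100346983-100347282 (+).
INSIG1: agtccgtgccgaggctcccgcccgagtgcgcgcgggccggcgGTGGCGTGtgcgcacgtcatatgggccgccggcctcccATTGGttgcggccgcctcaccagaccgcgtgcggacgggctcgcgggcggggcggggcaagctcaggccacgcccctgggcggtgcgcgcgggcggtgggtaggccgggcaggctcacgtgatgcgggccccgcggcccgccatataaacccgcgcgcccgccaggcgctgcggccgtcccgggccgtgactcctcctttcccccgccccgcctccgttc
FDPS: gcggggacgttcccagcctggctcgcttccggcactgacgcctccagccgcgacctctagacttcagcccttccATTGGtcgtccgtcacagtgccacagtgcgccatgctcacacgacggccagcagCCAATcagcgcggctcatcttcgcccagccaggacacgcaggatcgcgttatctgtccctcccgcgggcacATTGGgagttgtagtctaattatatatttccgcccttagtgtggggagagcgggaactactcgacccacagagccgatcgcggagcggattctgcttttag
HMGCS1: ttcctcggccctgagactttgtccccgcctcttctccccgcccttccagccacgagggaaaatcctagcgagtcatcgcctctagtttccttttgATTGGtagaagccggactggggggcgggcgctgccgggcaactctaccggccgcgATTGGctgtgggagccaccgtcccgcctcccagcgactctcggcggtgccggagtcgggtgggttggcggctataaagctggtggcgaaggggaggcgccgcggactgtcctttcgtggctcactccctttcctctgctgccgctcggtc
SCD: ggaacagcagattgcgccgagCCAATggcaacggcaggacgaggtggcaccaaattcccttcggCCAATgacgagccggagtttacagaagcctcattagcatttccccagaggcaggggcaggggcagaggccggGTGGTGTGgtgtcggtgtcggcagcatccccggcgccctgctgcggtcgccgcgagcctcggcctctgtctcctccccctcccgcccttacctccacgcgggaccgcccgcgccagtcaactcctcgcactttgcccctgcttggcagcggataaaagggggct
CCAAT, the box bound by the factor NF-Y, occurred in 15 of 20 windows of 15 listed cholesterol synthesis genes (75%, in 13 of 15 genes) and in 34.6% of all 35116 windows of this length. CACNCCAC, a short form of the element bound by sterol regulatory factors, occurred in 3 of 20 and in 5.87% of all, and the longer TCACNCCAC in 0 of 20 and 1.13%. The 3 motifs were chosen after the data were seen, TCACNCCAC contains CACNCCAC, and a match is a description of letters, not a site.

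Part of the glycolysis genes fell. Of 22 glycolysis genes 10 fell and 0 rose (3 firm: HK2, LDHB and GAPDH), with a median of -0.45 (-0.28 after quantile normalization). Among all genes 19.5% were lower. The median feeder-free level of this list was high, at 10.99. The 4190 genes with the highest levels had a median of -0.55 (-0.15 after quantile normalization), and 981 of them fell. The fit after that normalization called 3 list genes lower and 0 higher. The part of level in these falls was not tested further. HK2, the first step, was at 10.13, 10.25 and 9.28 with feeders and 10.86, 11.15 and 11.003 without, and LDHB at 13.84, 13.70 and 13.30 with feeders and 14.23, 14.18 and 14.15 without. ENO2 (-1.52), ALDOC (-1.49), PFKM (-1.13) and GPI (-0.97) fell without being firm. LDHA was at 13.17, 13.00 and 12.32 with feeders and 13.26, 13.11 and 13.11 without and did not pass, nor did the glucose carriers SLC2A1 (-0.14) and SLC2A3 (-0.077). Of 20 TCA cycle genes 4 fell, a share close to that of all genes (19.5%), of which ACO1 (-1.40) and IDH1 (-0.54), cytosolic forms of aconitase and isocitrate dehydrogenase, were firm. Of 74 oxidative phosphorylation genes 3 rose and 0 fell, and their median of -0.24 became 0.056 once arrays were quantile-normalized.

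Transport, growth and nucleotide genes contained firm falls. Of 24 amino acid carriers 9 fell, led by SLC38A4 (-2.78) and SLC7A3, a carrier of basic amino acids (-1.20), and SLC1A4 rose (1.14). Among all genes 19.5% were lower. This list had a median feeder-free level of 9.07 and a median difference of -0.52 (-0.25 after quantile normalization). Of the 4190 genes with levels of 7.77 to 9.39, 1442 fell, with a median of -0.62 (-0.23 after quantile normalization). Of 18 nucleotide synthesis genes 7 fell and 0 rose, with CTPS1 (-1.12), ATIC (-0.67) and PAICS (-0.53) firm. Their median feeder-free level was 10.87 and their median difference -0.55 (-0.30 after quantile normalization). The 4190 genes with the highest levels also had a median of -0.55 (-0.15 after quantile normalization), and 981 of them fell. The part of level in the falls of both lists was not tested further. Of 30 replication and mitosis genes 7 fell, again close to the share of all genes, and 14 without HSF1, among them POLA1 (-1.26) and MCM5 (-1.02), while MKI67 (-0.65) and PCNA (-0.22) did not pass. The median of that list was -0.58 and -0.20 after quantile normalization. Ribosomal protein genes, with 1 of 60 lower, had a median of -0.12 and of -0.039 after quantile normalization. Histone genes fell and rose (6 and 5 of 36), with H2BC12 (-1.93) and H2BC6 (1.56) at the ends, and copies of this family can share probes.

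Stress genes included single large changes. CRYAB, the small heat shock protein alpha-B crystallin, was at 9.43, 9.86 and 9.81 with feeders and 6.95, 6.27 and 5.96 without, while the other 12 heat shock genes did not pass. VEGFA was at 11.45, 11.45 and 12.01 with feeders and 9.33, 9.19 and 9.74 without, with all 4 probe sets higher, in a hypoxia list of which 3 rose and 3 fell. HMOX1, haem oxygenase 1, fell, at 7.61, 8.09 and 7.43 with feeders and 8.84, 10.67 and 8.83 without, and GADD45A rose (1.28). For metallothionein genes, whose copies can share probes, the culture difference was lower in H1 and H9 than in HSF1. MT1G differed by -1.32, -1.79 and -0.27 in H1, H9 and HSF1, MT1X by -0.86, -1.34 and 0.046 and MT2A by -0.86, -1.23 and 0.55. The median of the metallothionein list was -0.86, -1.34 and 0.17. Of 9 genes 5 fell, of which MT1M (-1.60) was firm, the other probe set of MT1G had the opposite sign, and 2 rose.

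Neural, secretory and noncoding genes showed mixed directions. MAP2, a microtubule protein of neurons, was at 7.66, 5.43 and 5.63 with feeders and 8.37, 8.88 and 7.66 without, and SCG5 (-1.78) and SCG3 (-1.53), proteins of secretory granules, fell firmly. The neuropeptide genes GAL (1.91) and NTS (2.30) rose, with their largest difference in H9. Of 38 protocadherin genes 6 rose and 6 fell. PCDHB16 (-2.56), PCDHB14 (-2.30) and PCDHB15 (-1.52) of the beta cluster, whose members are similar in sequence, fell firmly, and PCDH19 and PCDH7 (4.5), which stand alone, rose. For PCDH7, 3 of 4 probe sets had this sign, and the mean of its probe sets differed by 1.05. Of 425 long noncoding genes with LINC, SNHG and like names 136 rose and 17 fell, but 21 and 4 were firm, and the median feeder-free level was 5.72, where genes of all kinds tended upward. LINC00458 (1.82) had the largest firm rise among them.

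**Figure D4:**
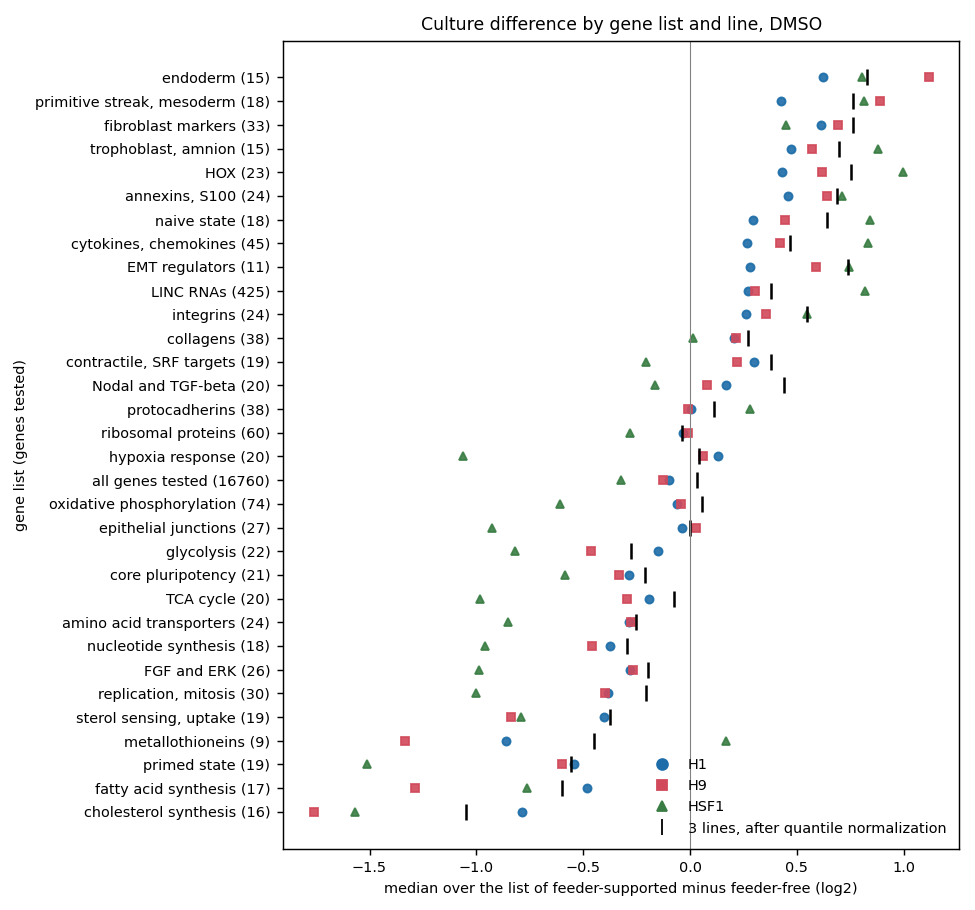
Median feeder-supported minus feeder-free difference (log2) of the genes of each list in H1, H9 and HSF1, with a black bar for the 3 lines after quantile normalization; the number of genes tested is in parentheses. Cholesterol and fatty acid synthesis lie at the lower end and endoderm at the upper end, and HSF1 lies apart from H1 and H9 for many lists, such as metallothioneins.

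The 3 lines had the same sign for 1843 of 1883 genes higher with feeders and 3212 of 3273 lower, and differed in size. Those genes were called on the mean of the same 3 line differences. Their agreement in sign was therefore largely set by the selection and is no separate evidence. Across the 16760 genes the correlation of differences was 0.78 between H1 and H9, 0.69 between H1 and HSF1 and 0.67 between H9 and HSF1, as a description across genes that share a level dependence. A difference of at least 2-fold was found in H1 for 299 genes higher and 523 lower, in H9 for 465 and 1283, and in HSF1 for 2101 and 5159. The 6 genes of mean level 7 or above that differed most between lines were RHOBTB3 (0.30, 2.73 and -1.89 in H1, H9 and HSF1), ERVH48-1 (-0.56, 3.86 and 0.43), CER1 (2.70, 5.80 and 1.51), FLRT3 (1.5, 4.56 and 0.45), NPPB (3.28, 5.25 and 1.17) and QPCT (1.07, 3.26 and -0.79). Each of these 6 genes had its highest value in H9, among them CER1 and FLRT3, genes of endoderm.

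The culture difference was also measured on the 6 arrays with inhibitor, which share no array with the DMSO comparison but share lines. There 9.59% of genes were higher and 15.5% lower. Of the 1883 genes higher with DMSO 1109 (58.9%) were called higher again and 0 lower, and of the 3273 lower genes 2154 (65.8%) were called lower again and 3 higher. Interquartile ranges with inhibitor were 2.84, 2.83 and 2.45 with feeders and 3.30, 3.21 and 3.20 without in H1, H9 and HSF1. They were thus narrower with feeders, as with DMSO, and the part of this in the repeated calls was not tested. HOXC6 differed by 5.79, INSIG1 by -2.66 and CPT1A by 1.64 with inhibitor. CUZD1, the gene of the largest fall with DMSO (-3.44), differed by -0.69 with inhibitor and was not called there (limma adjusted p = 0.0616), and the difference between treatments passed (interaction adjusted p = 0.00333). That test also passed for CDH11 (4.70 and 3.91, adjusted p = 0.034) and DAZL (-2.37 and -1.55, adjusted p = 0.0411) among the 15 largest changes of each direction. MT1G, in contrast, differed by -1.32, -1.79 and -0.27 with DMSO and by 1.71, -0.17 and 0.27 with inhibitor in H1, H9 and HSF1 (limma interaction adjusted p = 0.0155). A test of the difference between both treatments, within each line, passed for 299 genes, 0.919% of all with a higher value with DMSO and 0.865% with a lower one.

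Conditioned medium was measured on 12 feeder-free arrays that share no array with the feeder comparison, and addresses which changes also occur with the medium alone. On the H9 arrays the 3-prime minus 5-prime signal of ACTB was 1.07, 3.25 and 2.89 in plain medium and 1.84, 1.42 and 1.61 in conditioned medium. Over the HSF1 arrays of both media it was 1.52 to 1.84. The part of RNA quality in the H9 differences between media was not tested. In H9 3.4% of genes were higher and 12.5% lower in conditioned medium, and in HSF1 8.35% and 9.49%. Of the 458 firm feeder-high genes 62 (13.5%) were higher in H9 and 19 lower, and in HSF1 71 were higher and 20 lower; 32 were higher in both lines. Of the 727 firm feeder-low genes 290 (39.9%) were lower in H9 and 25 higher, and in HSF1 199 were lower and 48 higher; 129 were lower in both.

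The feeder-high genes that were also higher in conditioned medium in both lines included adhesion, Nodal and early lineage genes. ANXA1 differed by 1.61 in H9 and 0.85 in HSF1, LEFTY1 by 1.74 in H9 and 1.54 in HSF1, NODAL by 1.27 in H9 and 0.80 in HSF1, CAV1 by 1.98 in H9 and 2.11 in HSF1 and SOX17 by 0.63 in H9 and 0.51 in HSF1. KLF4, TFAP2C, SP5, FST, FN1, ANXA2, S100A10, FGF8, CDH2 and BMP4 belonged to the same set. In contrast HOXC6 differed by 0.29 in H9 and 0.11 in HSF1, TSHZ1 by -0.093 in H9 and 0.043 in HSF1, S100A6 by -0.35 in H9 and -0.28 in HSF1, and TWIST1 by -0.076 in H9 and 0.20 in HSF1, none of which passed in either line. ZIC1 differed by 0.36 in H9 and 1.22 in HSF1 and passed in HSF1 only (limma adjusted p = 2.46e-05). Of the fibroblast list 8 genes were higher and 7 lower in H9, and 4 higher and 5 lower in HSF1, with medians of 0.0096 and -0.0072.

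Among feeder-low genes CUZD1 differed by -1.99 in H9 and -2.08 in HSF1 in conditioned medium, FABP7 by -0.79 in H9 and -0.62 in HSF1, RORB by -0.83 in H9 and -0.86 in HSF1 and SFRP1 by -0.90 in H9 and -0.36 in HSF1, lower in both lines. TNFRSF11A (-1.34 in H9 and -0.58 in HSF1), TNFSF11 and MAP2 were also lower in both. The cholesterol synthesis genes did not follow: 0 of 16 were lower in H9 and 1 in HSF1, and 6 and 0 were higher. INSIG1 differed by 0.36 in H9 and -0.18 in HSF1 and passed as higher in H9. For metallothioneins the medians were 0.96 in H9 and 1.65 in HSF1, above 0, whereas with feeders and DMSO the medians of H1 and H9 were below 0. The difference between the feeder and the medium comparison was not tested gene by gene, and their durations may differ.

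**Figure D5:**
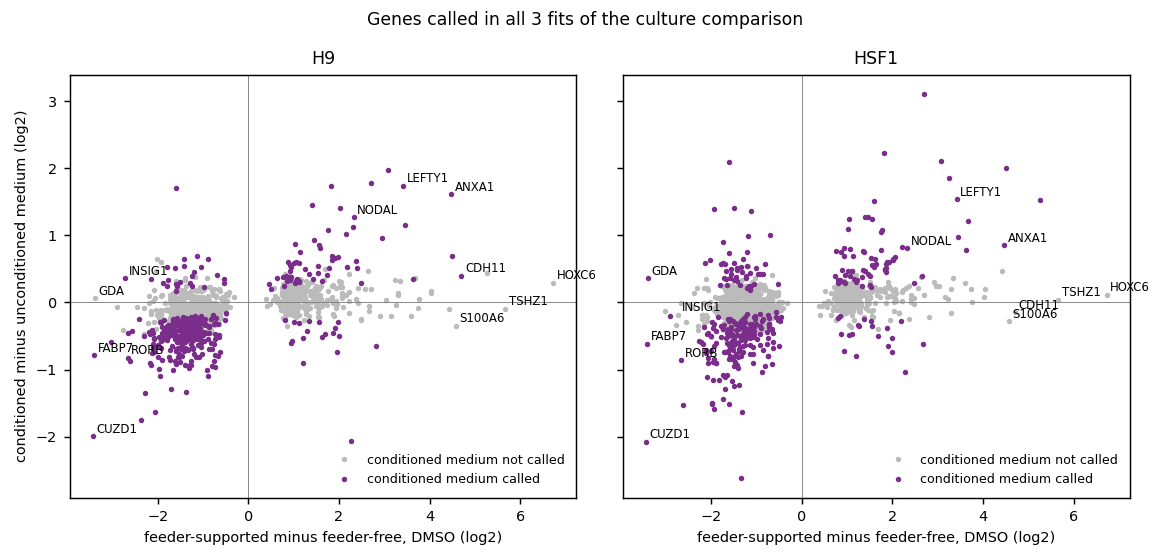
Each point is 1 of the 1185 genes called in all 3 fits of the culture comparison, with the feeder difference with DMSO on the x axis and the difference of conditioned from unconditioned medium on the y axis (both log2) for H9 (left) and HSF1 (right); purple points passed the medium test. ANXA1, LEFTY1, NODAL and CUZD1 lie away from 0 on both axes, whereas HOXC6, TSHZ1 and S100A6 lie near 0 on the y axis.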

How the data were processed

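The deposited values are log2 expression per probe set, made by the authors with RMA, per the submitters' processing notes (the version is not given in the sources used here). RMA subtracts background, quantile-normalizes and summarises probes, which pulls low values together. The deposited values nevertheless differed in distribution, with medians of 6.09 to 6.35 and interquartile ranges of 2.45 to 3.30 over the 24 arrays. The reason was not tested, and it limits every count given here. Of 54675 probe sets, 41097 name 1 gene in the platform annotation, 1801 several and 11777 none. Each of 19775 genes was read from the probe set of highest mean among those naming it alone, and 16760 above log2 5 on at least 3 of the 6 arrays were tested. The test was limma 3.58.1 (R 4.3.3, lmFit and eBayes with trend), with the line as block and Benjamini-Hochberg adjustment at 0.05. Replicate numbers pair arrays because they are lines: the deviations of both arrays of a line from their group means correlated at 0.48, 0.20 and 0.050 across genes in H1, H9 and HSF1. The scripts were tested on simulated data. Genes named are the 15 largest changes per direction with all probe sets of 1 sign and a higher group mean of at least 7, up to 4 per list and direction by p, 10 preset markers, and the 6 most variable between lines. Further list members, the promoters and the set called in all 3 fits were chosen after their values were seen. The comparison and its gene lists were chosen with earlier results of these data known. Y-linked genes and XIST are not reported.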

Additional observations from a re-analysis of the deposited data

Results flagged for a closer look

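The culture difference (feeder-supported minus feeder-free, log2) differed between DMSO and inhibitor arrays, by a limma test of the difference of differences within lines, for 8 genes named by smallest p; DMSO minus inhibitor is given after both values. For HMX2 the difference was -1.32 with DMSO and -3.55 with inhibitor (2.23). LINC02249 had -0.36 and -1.83 (1.47). NTS, a neuropeptide gene, had 2.30 and 0.92 (1.38), and EDIL3, an adhesion protein of vessels, 0.88 and -0.23 (1.10). KCNK12, a potassium channel gene, had -0.59 and 1.31 (-1.90), and CCL26, a chemokine, -0.48 and 1.36 (-1.85). OTX2, a homeobox gene of the forebrain, had -0.90 and 0.75 (-1.64), and TPM2, a tropomyosin, 0.12 and 1.18 (-1.06).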

How the results depend on the processing

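The limma counts (5156 genes with DMSO, 1883 higher and 3273 lower) depended on how the spread was estimated, and the cause of each shift was not tested. Without the line as block, the pairing of the design, 1894 genes were called (622 and 1272) with DMSO and 940 instead of 4206 with inhibitor. After quantile normalization there were 1393 (633 and 760) with DMSO, 615 with inhibitor and 114 instead of 299 for the difference between treatments. With array weights there were 10566 (4071 and 6495). A level above 6 gave 1239 higher genes. Of alternatives added after the data were seen, each gene's own spread gave 0 (0 and 0) in limma, against 2648 at an unadjusted p under 0.05, and calls in all 3 fits 1185 (458 and 727). Leaving out 1 line gave 443 to 5183 (107 to 1501 higher, 336 to 3682 lower), 181 to 5685 with inhibitor and 133 to 501 for the difference between treatments. The mean of probe sets gave 144 for the latter. Leaving out 1 medium replicate gave 529 to 4604 genes in H9 (2662 with all) and 1152 to 2321 in HSF1 (2991), and the number as block 1888 and 2333, although numbers there do not pair arrays. Of 194 named genes called, 163 kept their call after quantile normalization, 79 without H9 and 186 without HSF1, and 165 of 186 with the mean of probe sets. Leaving out 1 line gave -0.062 to 2.15 for ERVH48-1 and -0.48 to 1.63 for DKK1, and signs turned, without probe sets that may cross-hybridise, for FGFR2 (0.46) and MT1G (0.67).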
